A study of Homo sapiens with 6 samples.

Results

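The transcripts of 7 factors that recognise the branch point and the 3′ splice site were examined in K562 cells: SF1, U2AF2, SF3B1, SUGP1, DHX15, PRPF8 and ZRSR2. Members were the splice junctions that begin and end inside the hg19 window of 1 of these genes on its own strand, which gave 411 of the 780566 junctions listed in all libraries. In all, 55 lay in SF1, 39 in U2AF2, 82 in SF3B1, 46 in SUGP1, 49 in DHX15, 95 in PRPF8 and 45 in ZRSR2. The rule used positions alone and no read count. K562 is a human chronic myeloid leukaemia line. The control group (WT) was 3 libraries of K562 cells with a wild-type knock-in at U2AF1, and the other group was 3 libraries of K562 cells with U2AF1 S34F. All 6 were poly(A)-selected RNA, with no treatment given in the labels. The labels do not say whether the libraries of a group came from separate cultures or clones, nor whether the mutant allele is heterozygous, so a p-value below measures the spread between these libraries, which may be technical. The substitution itself leaves no mark in a junction table, and the markers of K562 were not analysed here.

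Recognition of the 3′ end of an intron begins when SF1 binds the branch point sequence, U2AF2 (the large U2AF subunit) binds the polypyrimidine tract beside it, and U2AF1 (the small subunit) contacts the AG. SF1 then gives way to the U2 snRNP, whose protein SF3B1 clamps the branch point helix; SUGP1 is a G-patch protein that works with SF3B1 in branch point choice, and DHX15 is a DEAH-box RNA helicase whose activity G-patch proteins stimulate. PRPF8 is the large U5 snRNP protein at the centre of the catalytic spliceosome, and ZRSR2 is a relative of U2AF1 needed mainly at the 3′ splice site of U12-type introns. S34F lies in a zinc finger of U2AF1 and is a recurrent substitution in myeloid neoplasms, where SF3B1 and ZRSR2 are mutated too.

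Each library held between 18074706 (S34F replicate 2) and 39279169 (S34F replicate 3) uniquely mapped spliced reads. Correlations were taken over the 10339 loci with at least 20 reads in every library. There WT replicate 1 correlated more closely with S34F replicate 2 (Pearson r = 0.9805) than with WT replicates 2 and 3 (0.9735 and 0.9757). Named events whose adjusted p falls under 0.05 without WT replicate 1 are given with and without it. The share of all events with an adjusted p under 0.05 alone in the fits without WT replicate 1 is not given here. Of the 411 junctions, 167 were annotated, and 142 of these had reads in all 6 libraries. The 244 unannotated junctions were mostly thin: 118 had a single unique read, 7 had only multi-mapped reads, and 12 had reads in all 6 libraries. Annotated junctions carried 280365 unique reads, from 333 reads for ZRSR2 in S34F replicate 2 to 20872 reads for PRPF8 in S34F replicate 3. All 411 had a GT-AG or GC-AG intron, 7 of them GC-AG, and 0 were AT-AC.

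The level of each gene's spliced RNA was compared first. No gene of the 7 was called: spliced reads of SUGP1 and SF1 were more abundant in S34F by point estimate, those of U2AF2, PRPF8 and DHX15 less abundant, and none passed edgeR's quasi-likelihood test at an adjusted p under 0.05. The same test called 0% of the 12342 loci (DESeq2 called 343 of them, 2.78%, and 0 of the 7 genes). At an unadjusted p under 0.05 it held 1 of the 7 genes, SUGP1, and 13.6% of all loci. Levels are given as the median over a gene's introns of RPM, the usual depth-scaled read count with the library's uniquely mapped spliced reads as its denominator (RPM per intron), which does not grow with the number of introns. In these bulk libraries, fewer cells expressing a gene and less RNA per cell cannot be told apart.

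**Figure D1:**
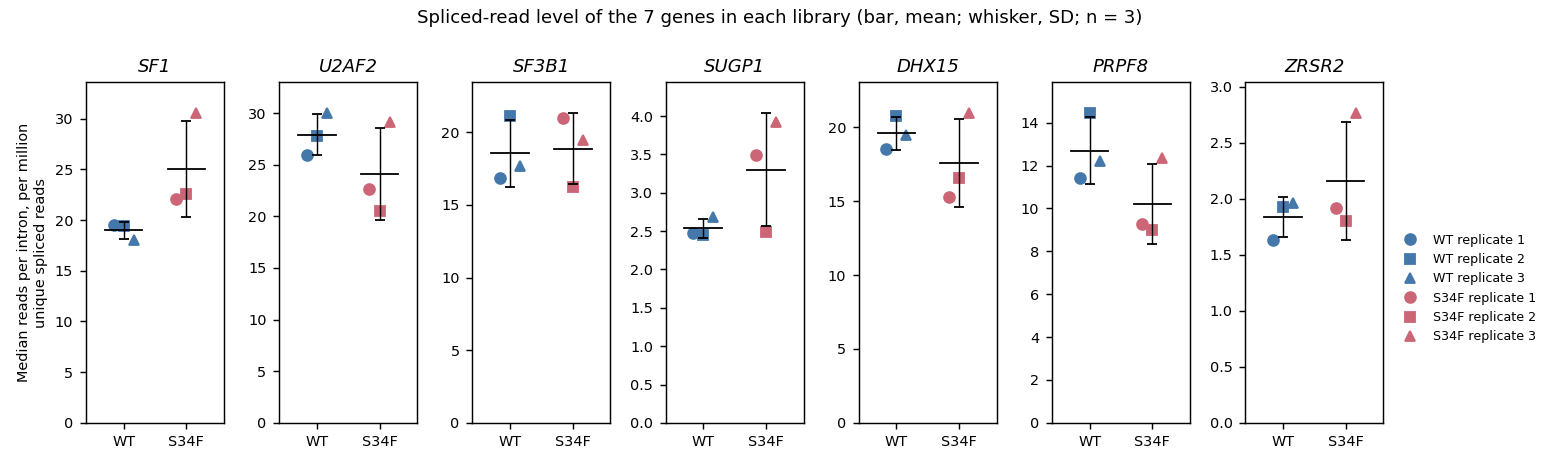
Median RPM per intron (linear axis from 0, 1 panel per gene with its own scale) in each of the 6 libraries, with WT in blue and S34F in red; the bar is the mean and the whisker the SD of 3 libraries. In SF1 all S34F libraries sit above all WT libraries (22.1 to 30.5 against 18.0 to 19.5), and in the other 6 genes the groups overlap. By summed reads the groups do not overlap in SUGP1 either. The share of all loci without overlap by level was not counted.

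SF1, the branch point binding protein, had 19.5, 19.4 and 18.0 RPM per intron in WT replicates 1 to 3 and 22.1, 22.6 and 30.5 in S34F replicates 1 to 3. The groups did not overlap, and S34F replicate 3 stood well above the other two. How many of all loci separate the groups by level was not counted, so such separation is descriptive here and below. The log2 fold change of its summed reads was 0.31 (SE 0.15, 95% interval -0.04 to 0.66, edgeR adjusted p = 0.408), and 0.18 without S34F replicate 3.

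U2AF2 had 26.0, 27.8 and 30.0 RPM per intron in WT and 22.7, 20.5 and 29.1 in S34F. Replicates 1 and 2 of S34F were below every WT library and replicate 3 was not. The log2 fold change was -0.29 (SE 0.15, interval -0.65 to 0.06, edgeR adjusted p = 0.443), and -0.41 without S34F replicate 3.

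SF3B1 had 16.9, 21.1 and 17.6 RPM per intron in WT and 20.9, 16.2 and 19.5 in S34F. The ranges were nearly the same, with 1 S34F library below the WT range. The log2 fold change of -0.03 (SE 0.14, interval -0.36 to 0.31, edgeR adjusted p = 0.954) turned to 0.02 when libraries were scaled by total unique reads in place of TMM factors.

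SUGP1 had 2.48, 2.45 and 2.68 RPM per intron in WT and 3.49, 2.49 and 3.92 in S34F. By the median intron S34F replicate 2 lay inside the WT range; by summed reads, 31.4 to 34.2 RPM in WT against 45.1, 35.9 and 53.0 in S34F, all S34F libraries were higher. The log2 fold change was 0.39 (SE 0.16, interval 0.03 to 0.75, unadjusted p = 0.0388, edgeR adjusted p = 0.344), the largest of the 7 genes, and the adjusted p lay between 0.241 and 0.615 in the alternatives run.

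DHX15 had 18.5, 20.7 and 19.5 RPM per intron in WT and 15.3, 16.5 and 20.95 in S34F, with S34F replicate 3 above all WT libraries and the other two below them. Its log2 fold change was -0.20 (SE 0.14, edgeR adjusted p = 0.572), -0.13 without WT replicate 2 and -0.11 without S34F replicate 1. PRPF8 had 11.4, 14.4 and 12.2 in WT and 9.29, 9.02 and 12.4 in S34F, with S34F replicate 3 inside the WT range and the other two below it. Its log2 fold change was -0.30 (SE 0.16, edgeR adjusted p = 0.436), and -0.19 without WT replicate 2.

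ZRSR2 was the least abundant, with 1.63, 1.93 and 1.96 RPM per intron in WT and 1.92, 1.80 and 2.76 in S34F. Only S34F replicate 3 left the WT range. The log2 fold change was 0.18 (SE 0.17, edgeR adjusted p = 0.695), 0.06 without that library and 0.11 without WT replicate 1. Its junctions also had the largest share of multi-mapped reads, 4.75% to 9.07% by library against at most 2.80% in the other genes; ZRSR2 has processed copies elsewhere in the genome, and reads they share with it are uncertain.

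**Figure D2:**
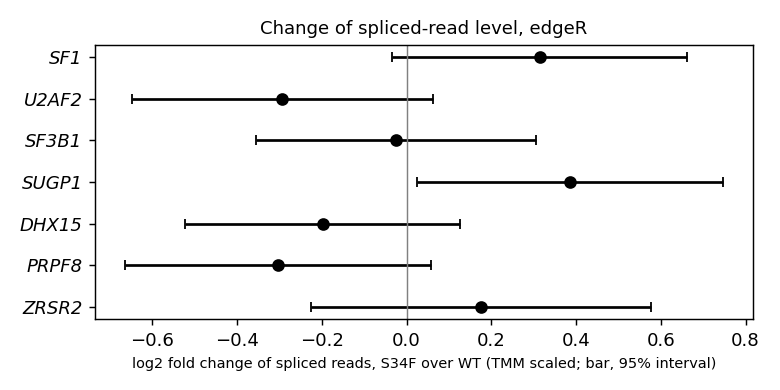
Log2 fold change of summed spliced reads, S34F over WT, from edgeR with TMM scaling (points) with its 95% interval (bars), for the 7 genes. The interval of SUGP1 runs from 0.03 to 0.75 and the other 6 include 0.

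Ordered by the WT mean, U2AF2 was highest (27.9 ± 2.01 RPM per intron, SD, n = 3), followed by DHX15 (19.6 ± 1.11), SF1 (19.0 ± 0.866) and SF3B1 (18.5 ± 2.28), whose ranges overlapped one another, then PRPF8 (12.7 ± 1.55), SUGP1 (2.54 ± 0.129) and ZRSR2 (1.84 ± 0.181). In S34F the order was SF1 (25.1 ± 4.74), U2AF2 (24.1 ± 4.48), SF3B1 (18.9 ± 2.42), DHX15 (17.6 ± 2.97), PRPF8 (10.2 ± 1.86), SUGP1 (3.30 ± 0.735) and ZRSR2 (2.16 ± 0.526). The ranges of U2AF2 overlapped those of SF1, SF3B1 and DHX15 there, SF3B1 overlapped DHX15, and SUGP1 overlapped ZRSR2. The 2 least abundant factors were thus SUGP1 and ZRSR2 in both groups.

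Pairs of genes were compared by RPM summed over their annotated junctions, not by the median intron. Among the 21 pairs, those most alike over the 6 libraries were DHX15 and PRPF8 (Pearson r of log2 summed RPM 0.9447), U2AF2 and PRPF8 (0.905) and SF1 and SUGP1 (0.8991). SUGP1 and DHX15 were least alike (-0.1043). The 6 points of each pair share their libraries and depth, and these values are descriptive.

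Single introns showed how evenly these differences ran along each transcript. The 7 genes have 125 consecutive introns, and 124 had at least 20 reads in every library. In 18 of the 124 every S34F library was above every WT library in RPM, and in 7 every S34F library was below; over all annotated junctions with that depth the shares were 8.33% above and 8.94% below. With TMM scaling the counts were 17 and 17 (7.69% and 10.9% of all such junctions). Introns of 1 gene share their transcripts and are not independent of each other.

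The 18 introns were 8 of the 12 in SF1, 8 of the 13 in SUGP1 and 2 of the 9 in ZRSR2 with enough reads; the 7 were 4 of the 42 in PRPF8, 2 of the 13 in DHX15 and 1 of the 11 in U2AF2. By sign alone, all 12 introns of SF1 (log2 ratio of group means 0.15 to 0.52) and all 13 of SUGP1 (0.04 to 0.78) had the higher mean in S34F. All 11 of U2AF2 (-0.39 to -0.22), all 13 of DHX15 (-0.36 to -0.06) and all 42 of PRPF8 (-0.46 to -0.05) had the lower mean. SF3B1 was split, with 11 introns below 0 and 13 above.

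SUGP1 had its largest ratio at its last intron, chr19:19387484-19387755, with 1.57, 1.76 and 2.12 RPM in WT and 3.11, 2.49 and 3.74 in S34F (log2 ratio 0.78), and its smallest at the first, chr19:19427403-19431271 (0.04). At the last intron all S34F libraries were above all WT libraries, while at the first they overlapped. Between them the ratio did not rise steadily (0.55 at intron 4 and 0.30 at intron 5). In ZRSR2 the largest ratio was at intron 4, chrX:15821920-15822233, with 1.42, 2.05 and 1.81 RPM in WT and 3.07, 2.66 and 3.16 in S34F (0.75). These single introns were picked for their values and were not tested.

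**Figure D3:**
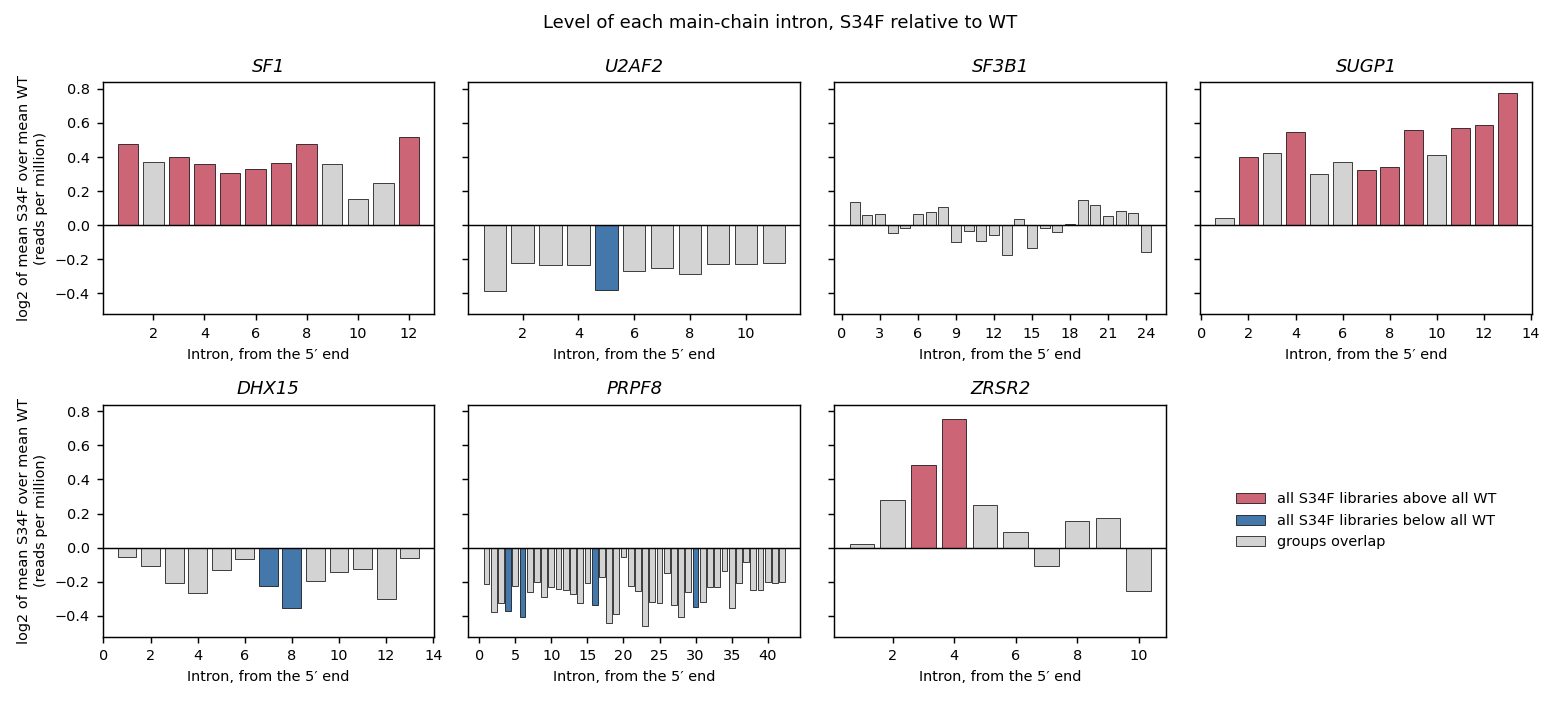
Log2 ratio of the S34F mean over the WT mean of RPM for each intron, in transcript order from the 5′ end (x axis, intron number), 1 panel per gene. PRPF8, DHX15 and U2AF2 lie below 0 at every intron, SF1 and SUGP1 above 0 at every intron, and SF3B1 scatters about 0 from -0.17 to 0.15.

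Splice site choice inside the genes was tested in 4 classes of event and 1 summed share, each fitted over the whole series with edgeR's quasi-likelihood test. Acceptor usage is the share of a donor's reads (5′ splice site) that go to 1 acceptor (3′ splice site), and donor usage is the share of an acceptor's reads that come from 1 donor. Competing acceptors are 2 acceptors of 1 donor at most 100 nt apart. Cassette inclusion, for exons of at most 500 nt, sets the rounded mean of the 2 inclusion junctions against the skipping junction, as a percentage of both. It stands for a share of transcripts only where the 2 inclusion junctions have similar counts. An event was called at an adjusted p under 0.05 with group mean shares at least 10 points apart. Where a site has only 2 junctions, their shares mirror each other. The events named below were mostly picked for their large differences, so groups that do not overlap there are a description.

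None of these classes held a call in the 7 genes. Acceptor usage was tested for 61 of 287 member junctions that share a donor with another, with 0 called against 2.11% of all 51522 tested (0 and 4.63% without the 10-point minimum). For donor usage it was 0 of 48 tested (228 listed) against 0.934% (2.04% without the minimum), for competing acceptors 0 of 9 tested (97 listed) against 2.85% (6.53%), and for cassette exons 0 of 18 tested (170 listed) against 2.50% (5.50%). With so few events these counts are near the background. The background moved with the libraries used. Without S34F replicate 3, the deepest library, 0.185% of acceptor, 0.0102% of donor, 2.54% of competing acceptor and 0% of cassette events were called, and without WT replicate 1 the shares were 4.15%, 2.77%, 3.30% and 5.94%; the members had 0 called in each class both times. At an unadjusted p under 0.05 the members had 7 acceptor, 11 donor, 0 competing acceptor and 3 cassette events (11.5%, 22.9%, 0% and 16.7% of those tested), where all features had 19.9%, 17.3%, 17.3% and 23.7%. DESeq2 called 0 members in each class, against 0.291%, 0.383%, 0.721% and 1.37% of all features, with 6, 6, 0 and 2 at an unadjusted p under 0.05.

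The median absolute difference of group means was 0.891 points for acceptor usage in the 7 genes and 1.48 over all junctions tested, 0.950 and 1.43 for donor usage, 0.582 and 1.08 for competing acceptors, and 0.830 and 1.76 for cassette exons. In log2 odds, the scale of the test, the order was the other way in 3 of the 4 classes: the medians were 0.75 in the 7 genes and 0.69 over all for acceptor usage, 0.75 and 0.64 for donor usage, and 0.64 and 0.54 for competing acceptors, against 0.65 and 0.74 for cassette exons. Only 3 member events differed by 10 points or more, 1 in acceptor and 2 in donor usage, and all lay in ZRSR2. Events tested were spread unevenly over the genes: SF1 had 16 in acceptor usage, and ZRSR2 and the more deeply read DHX15 had 4 each.

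In SF1, the exon with the largest difference in cassette inclusion lies near the 3′ end. A 205-nt annotated exon at chr11:64533423-64533627 had a cassette inclusion of 57.04%, 45.8% and 52.9% in WT and 61.4%, 58.8% and 64.4% in S34F. The junction into the exon had 1936 reads over the 6 libraries and the junction out of it 150. These values thus average 2 unequal flanks and do not measure the share of transcripts with the exon. Every S34F library was above every WT library. The difference was 0.57 in log2 odds (SE 0.36, edgeR adjusted p = 0.343) and was not called. The same choice seen from the upstream donor gave the acceptor of the skipping junction, chr11:64532991-64534371, 33.2% ± 4.87 of reads in WT and 25.2% ± 2.28 in S34F (SD, n = 3; edgeR adjusted p = 0.370), and the acceptor at the exon, chr11:64533628-64534371, 66.8% ± 4.87 and 74.7% ± 2.23 (0.372). At the shared acceptor 64532991 the skipping junction took 84.6% ± 4.67 in WT and 77.5% ± 3.40 in S34F, and the junction leaving the exon (chr11:64532991-64533422) took 12.6% ± 3.59 and 18.1% ± 2.05; these had edgeR adjusted p = 0.391 and 0.474.

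At the 5′ end of SF1, a 160-nt exon in the first intron (chr11:64545459-64545618) had a cassette inclusion of 4.27%, 5.90% and 3.92% in WT and 3.81%, 2.24% and 2.88% in S34F. The junction out of this exon had 168 reads over the 6 libraries and the junction into it 10. These values thus come almost wholly from 1 flank and do not measure the share of transcripts that splice the exon in. The lowest WT and highest S34F libraries nearly touched, and the exon was not called (edgeR adjusted p = 0.367). SF1 also has tandem acceptors. Of reads from the donor at 64535042, the acceptor at 64534724 took 89.3% ± 1.37 in WT and 88.7% ± 1.84 in S34F against its annotated neighbour 5 nt downstream (log2 odds -0.10, interval -0.65 to 0.45, edgeR adjusted p = 0.931). From the donor at 64535577 the annotated acceptor at 64535317 took 97.8% ± 0.772 and 98.0% ± 0.382 against an unannotated one 21 nt downstream (log2 odds 0.28, interval -0.49 to 1.04, edgeR adjusted p = 0.825). The latter junction, chr11:64535296-64535577, was the most read unannotated junction of SF1, with 87 reads and some in all 6 libraries.

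In U2AF2, the donor of intron 5 (chr19:56172556) joins mainly to the acceptor at 56173867 and sometimes to an annotated acceptor upstream, at 56173136. The upstream acceptor took 12.7%, 5.85% and 5.84% in WT and 11.6%, 13.5% and 13.3% in S34F, from 340 to 905 reads per library. WT replicates 2 and 3 were below all S34F libraries, while WT replicate 1 lay among them. The difference was 0.79 in log2 odds (SE 0.38, edgeR adjusted p = 0.243), and 1.24 without WT replicate 1 (edgeR adjusted p = 0.0294). In that fit 4.15% of all junctions tested were called, which needs the 10-point minimum too. This U2AF2 junction missed the minimum, and the share of all junctions by adjusted p alone is not given here. With another library left out the log2 odds fell to as low as 0.57, and the adjusted p reached 0.745 in the alternatives run. The main acceptor at 56173867 took 91.7% ± 3.80 in WT and 87.2% ± 1.04 in S34F (edgeR adjusted p = 0.264, and 0.0377 without WT replicate 1). Its adjusted p also reached 0.745 in the alternatives run.

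A 120-nt annotated exon inside intron 1 of U2AF2 (chr19:56170228-56170347) was included at 1.59%, 2.06% and 1.48% in WT and at 1.78%, 4.39% and 5.04% in S34F. Replicates 2 and 3 of S34F were higher and replicate 1 lay inside the WT range (log2 odds 1.15, SE 0.51, edgeR adjusted p = 0.174). By donor usage, the junction from that exon (chr19:56170348-56170575) took 1.94% ± 0.337 and 4.81% ± 2.63, and the junction from the first donor (chr19:56166520-56170575) took 98.1% ± 0.337 and 95.2% ± 2.63 (edgeR adjusted p = 0.178 for both).

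Other choices in U2AF2 had closer group means. The 45-nt exon at chr19:56171543-56171587 was included at 99.5% ± 0.675 in WT and 99.6% ± 0.582 in S34F (log2 odds interval -1.48 to 2.77, edgeR adjusted p = 0.749). The junction that skips it, chr19:56170712-56171881, was the gene's most read unannotated one, with 16 reads. An unannotated acceptor 36 nt downstream of 56180035 left the annotated acceptor at 99.9% ± 0.110 and 99.7% ± 0.122 (edgeR adjusted p = 0.526). The annotated GC-AG junction chr19:56180548-56180809, singled out after its values were seen, supplied 23.0%, 22.8% and 19.97% of its acceptor's reads in WT and 20.7%, 23.3% and 21.6% in S34F. It was the only GC-AG junction of the 7 genes with more than 2 unique reads, and its difference was -0.01 in log2 odds (interval -0.67 to 0.66, edgeR adjusted p = 0.996).

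In SF3B1, the largest difference in inclusion was that of a 217-nt exon near the 3′ end, chr2:198257696-198257912. It was included at 98.6%, 100% and 99.7% in WT and at 98.7%, 96.7% and 97.1% in S34F. S34F replicates 2 and 3 were below all WT libraries and S34F replicate 1 lay beside WT replicate 1. The log2 odds were -2.18 (SE 0.72, edgeR adjusted p = 0.0762), and -4.31 without WT replicate 1 (edgeR adjusted p = 0.0058), at a difference below 10 points. With another library left out they shrank to as little as -1.47, and the adjusted p reached 0.287 in the alternatives run. The skipping junction, chr2:198257186-198260779, is unannotated and had 7, 0 and 1 reads in WT and 7, 11 and 26 in S34F. Fits without WT replicate 1 thus drop the WT library with the most skipping reads and keep those with 0 and 1. It took 0.460% ± 0.619 of its donor's reads in WT and 1.99% ± 0.835 in S34F (edgeR adjusted p = 0.0774), and 0.677% ± 0.913 and 3.32% ± 1.46 of its acceptor's reads (0.0804). Without WT replicate 1 the log2 odds of these shares went from 2.09 to 4.21 and from 2.31 to 4.46 (edgeR adjusted p = 0.0048 and 0.0050). With another library left out they fell to as low as 1.40 and 1.58. The adjusted p of these shares reached 0.327 and 0.335 in the alternatives run. The annotated junctions beside the skipping junction, chr2:198257913-198260779 and chr2:198257186-198257695, took 99.4% and 97.9% of their donor's reads and 99.3% and 96.7% of their acceptor's reads in WT and S34F respectively (edgeR adjusted p = 0.0961 and 0.0804, and 0.0130 and 0.0050 without WT replicate 1). The adjusted p of these annotated junctions reached 0.516 and 0.335 in the alternatives run.

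A 56-nt annotated exon in intron 4 of SF3B1 (chr2:198283620-198283675) was included at 2.18%, 1.61% and 0.946% in WT and at 2.74%, 2.28% and 2.75% in S34F. All S34F libraries were higher, by about a point (log2 odds 0.73, SE 0.47, edgeR adjusted p = 0.359). Here too the flanks were unequal, with 29 reads over the 6 libraries into the exon and 109 out of it. The gene's most read unannotated junction, chr2:198263763-198264778, had 66 reads in all, at 0.464 ± 0.116 RPM in WT and 0.408 ± 0.0926 in S34F.

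In SUGP1, reads per event were few, from 32 to 161 per library in the events named here. The annotated acceptor at chr19:19414722, 65 nt upstream of the main one at 19414657, took 5.83% ± 3.58 of the pair's reads in WT and 3.78% ± 2.08 in S34F (log2 odds interval -2.20 to 0.92, edgeR adjusted p = 0.780). As shares of all reads from that donor the 2 acceptors took 5.66% and 91.4% in WT and 3.50% and 89.3% in S34F (edgeR adjusted p = 0.683 and 0.841). The acceptors of its first intron, 19427403 and 19427332, lie 71 nt apart, and the first took 90.6% ± 3.44 and 92.7% ± 1.04 (edgeR adjusted p = 0.870). The single SUGP1 junction tested for donor usage, chr19:19408154-19413073, took 95.3% ± 1.54 and 98.2% ± 1.62 (edgeR adjusted p = 0.527). Its most read unannotated junction, chr19:19414216-19414532, had 11 reads.

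In DHX15, the acceptor of intron 10 at chr4:24538797 took 96.3% ± 1.16 of its donor's reads in WT and 96.9% ± 1.36 in S34F (edgeR adjusted p = 0.823). Against an unannotated acceptor 8 nt downstream it took 97.6% ± 1.47 and 97.5% ± 1.20 (log2 odds interval -1.19 to 0.88, edgeR adjusted p = 0.945), and the junction to that acceptor, chr4:24538789-24541730, was the gene's most read unannotated one with 42 reads. The first intron took 99.4% ± 0.112 and 99.8% ± 0.385 of its donor's reads (edgeR adjusted p = 0.638). At the acceptor of intron 12, an unannotated donor (chr4:24531394-24533073) had 3, 0 and 1 reads in WT and 3, 3 and 8 in S34F, or 0.326% ± 0.370 and 1.06% ± 0.220 (log2 odds 1.76, edgeR adjusted p = 0.277). Its log2 odds were 3.03 without WT replicate 1 (0.0904) and 1.11 without WT replicate 2 (0.595); the annotated junction chr4:24531394-24534486 took 99.4% ± 0.522 and 98.7% ± 0.276 (edgeR adjusted p = 0.437).

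In PRPF8, a 57-nt annotated exon inside intron 39 (chr17:1555275-1555331) was included at 0.319%, 0% and 0.385% in WT and at 1.59%, 2.04% and 1.498% in S34F. All S34F libraries were above all WT libraries, on inclusion counts (the rounded mean of both inclusion junctions) of 1, 0 and 1 against 4, 4 and 8. The log2 odds were 2.78 (SE 0.86, edgeR adjusted p = 0.0604), and the edgeR adjusted p was 0.0487 without WT replicate 1. The difference stayed below 10 points. With another library left out the log2 odds fell to as low as 2.13, and the adjusted p reached 0.415 in the alternatives run. The acceptor of this exon, chr17:1555332-1556835, took 0.234% ± 0.206 of its donor's reads in WT and 1.81% ± 0.680 in S34F, and the intron's main acceptor, at 1555083, took 99.8% ± 0.206 and 98.2% ± 0.680 (edgeR adjusted p = 0.059 for both, and 0.0486 with the newer dispersion estimate of edgeR). The adjusted p of both acceptors reached 0.483 in the alternatives run. By donor usage the whole intron chr17:1555083-1556835 took 98.7% ± 1.00 and 96.4% ± 0.899 (edgeR adjusted p = 0.141). Only part of the remainder came from this exon, whose junction chr17:1555083-1555274 took 0.231% in WT and 1.39% in S34F. An unannotated donor, chr17:1555083-1556831, took 1.03% and 2.21%, with overlapping groups.

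A 170-nt exon of PRPF8 (chr17:1564287-1564456) was included at 98.6% ± 1.81 in WT and 97.3% ± 1.07 in S34F (edgeR adjusted p = 0.301, and 0.015 without WT replicate 1). Its log2 odds ran from -3.21 to -0.64 with 1 library left out, and the adjusted p of this exon reached 0.751 in the alternatives run. The junction that skips it, chr17:1564122-1564564, was the gene's most read unannotated one, with 10, 1 and 1 reads in WT and 6, 3 and 20 in S34F. WT replicate 1 had the second highest count, and the skipping junction took 1.61% ± 2.17 of its acceptor's reads in WT and 3.21% ± 1.18 in S34F, leaving 98.4% and 96.8% to the annotated junction chr17:1564122-1564286 (edgeR adjusted p = 0.360 for both, and 0.0191 without WT replicate 1). The adjusted p of both junctions reached 0.777 in the alternatives run. The one competing acceptor pair of PRPF8 that was tested, 90 nt apart at 1576862 and 1576772, gave 99.6% ± 0.0803 and 99.4% ± 1.00 to the annotated site (edgeR adjusted p = 0.673).

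**Figure D4:**
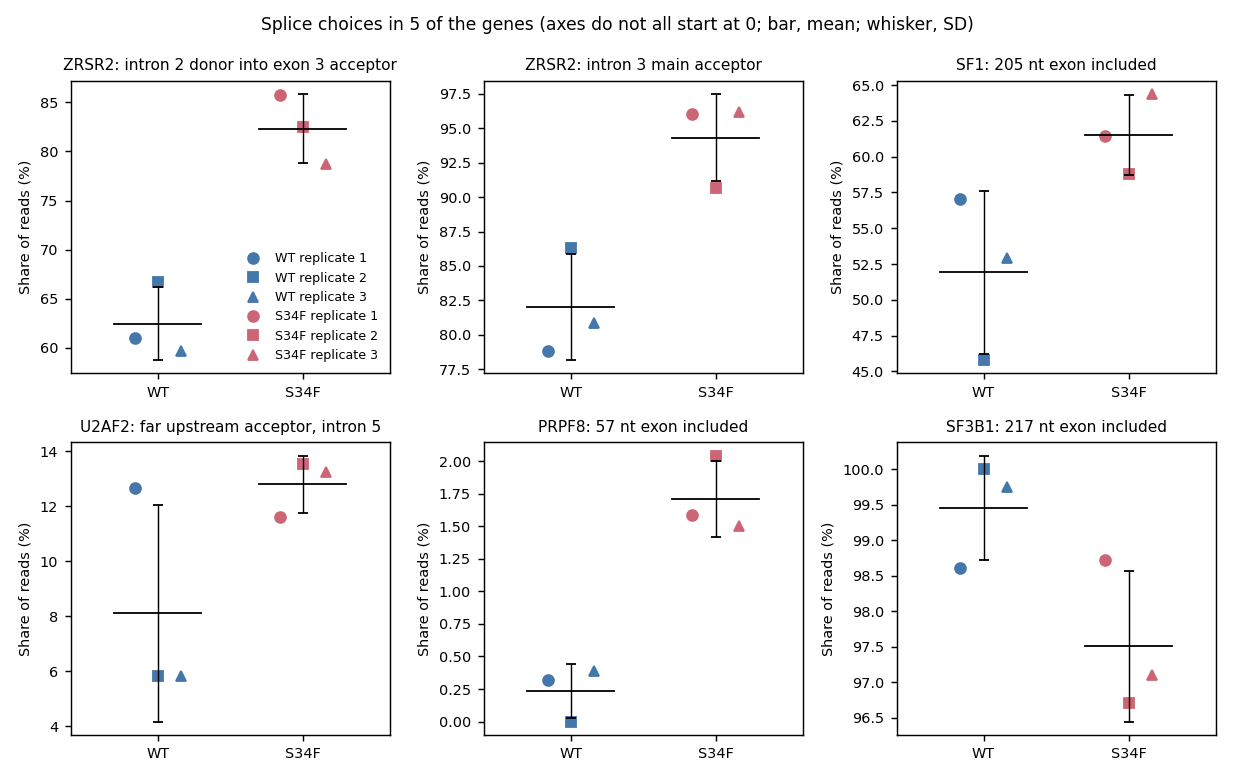
Shares (percent, y axis, each panel with its own scale) in each of the 6 libraries for 6 events in 5 of the 7 genes, WT in blue and S34F in red, with the mean (bar) and SD (whisker) of 3 libraries. The group means of the ZRSR2 junctions differ most in percentage points, and WT replicate 1 sits with the S34F libraries for the upstream U2AF2 acceptor.

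ZRSR2 had the largest differences in percentage points. In absolute log2 odds the 217-nt exon of SF3B1 (-2.18) and the 57-nt exon of PRPF8 (2.78) differed more, on few reads of their rarer form. At the acceptor of intron 2 (chrX:15817994), the annotated donor at 15809137 supplied 61.0%, 66.7% and 59.7% of the reads in WT and 85.7%, 82.5% and 78.7% in S34F. The groups were well apart, from 40 to 122 reads per library. The change in log2 odds was 1.43 (SE 0.46, interval 0.49 to 2.36, edgeR adjusted p = 0.0937), past the 10-point minimum and short of the adjusted threshold. Most of the remainder came from an unannotated donor inside that intron, chrX:15814374-15817994, the most read unannotated junction of all 7 genes with 107 reads. It took 32.2%, 31.9% and 34.3% in WT and 14.3%, 17.5% and 21.3% in S34F (log2 odds -1.14, SE 0.46, edgeR adjusted p = 0.191). At the next intron the annotated acceptor, chrX:15818077-15821810, took 78.8%, 86.3% and 80.9% of its donor's reads in WT and 96.1%, 90.7% and 96.2% in S34F. These groups did not overlap either (log2 odds 2.02, SE 0.62, interval 0.76 to 3.29, edgeR adjusted p = 0.0561). An unannotated acceptor there, chrX:15818077-15818331, took 10.8% ± 5.96 and 4.24% ± 2.54, with 7, 2 and 7 reads in WT and 1, 3 and 5 in S34F (edgeR adjusted p = 0.253).

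With multi-mapped reads added, the log2 odds of these annotated ZRSR2 junctions were 1.17 at intron 2 (edgeR adjusted p = 0.155) and 1.20 at intron 3 (0.200). The adjusted p of the first lay between 0.0743 and 0.684 in all alternatives run, and that of the second between 0.0503 and 0.401. The only competing acceptor pair tested in ZRSR2, 11 nt apart, gave 96.1% ± 1.41 in WT and 92.0% ± 6.46 in S34F to the annotated site at 15817994 (edgeR adjusted p = 0.714).

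Unannotated junctions were then summed over each gene, as a share of its unique spliced reads, with a call at an adjusted p under 0.05 and at least 1 point between groups. The count called was 0 of 7 genes, where 1.26% of 9428 loci were called (1.81% without the minimum, 0.0221% without S34F replicate 3 and 4.58% without WT replicate 1); 2 of the 7, ZRSR2 and PRPF8, and 15.9% of all loci had an unadjusted p under 0.05 (DESeq2 called 0 of the 7 and 0.0636% of all loci, and had 0 of the 7 under that unadjusted p). ZRSR2 had 8.49%, 7.39% and 10.4% in WT and 3.99%, 6.72% and 5.27% in S34F. All S34F libraries were lower (log2 odds -0.79, SE 0.31, edgeR adjusted p = 0.196), and the junctions of introns 2 and 3 above are part of this share. PRPF8 had 0.263%, 0.148% and 0.243% in WT and 0.310%, 0.276% and 0.515% in S34F. All S34F libraries were higher, replicate 3 most of all (log2 odds 0.82, SE 0.32, edgeR adjusted p = 0.193), and without replicate 3 the log2 odds were 0.47 (0.705). The PRPF8 shares rest on 32, 23 and 25 unannotated reads in WT and 31, 20 and 108 in S34F. Over all junctions of the series the share was 1.25%, 1.03% and 1.15% in WT and 1.30%, 1.24% and 1.38% in S34F. There too S34F replicate 3 was highest, and the groups overlapped.

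The other 5 genes overlapped between groups. How many of all loci separate the groups by this share was not counted, so the separation in ZRSR2 and PRPF8 is descriptive. The share was 0.321% ± 0.0875 in WT and 0.468% ± 0.0852 in S34F for SF3B1 (edgeR adjusted p = 0.359), and 1.12% ± 0.110 and 1.12% ± 0.434 for SUGP1 (0.985). It was 0.482% ± 0.0141 and 0.461% ± 0.123 for SF1 (0.977), 0.412% ± 0.0539 and 0.442% ± 0.0380 for DHX15 (0.907), and 0.134% ± 0.0855 and 0.165% ± 0.0730 for U2AF2 (0.820). ZRSR2 thus had the highest share in both groups.

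**Figure D5:**
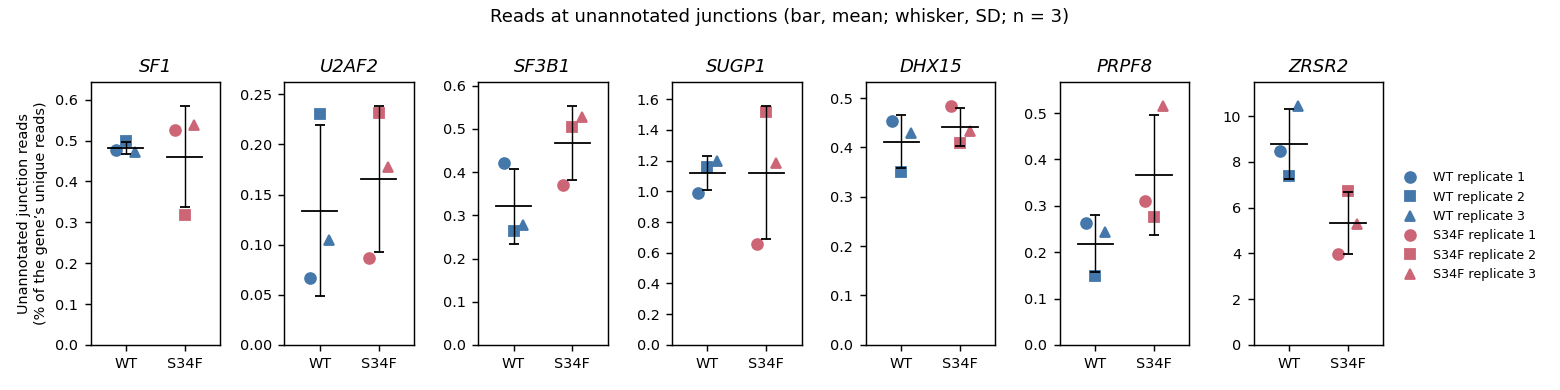
Share of each gene's unique spliced reads at unannotated junctions (percent, linear axis from 0, 1 panel per gene with its own scale) in each of the 6 libraries; the bar is the mean and the whisker the SD of 3 libraries. ZRSR2 lies at 7.39% to 10.4% in WT and 3.99% to 6.72% in S34F, and PRPF8 is the other gene whose groups do not overlap. The share of all loci without overlap was not counted.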

How the data were processed

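The deposited values were whole-number counts of uniquely mapped and of multi-mapped reads per splice junction, with the largest overhang in nt beside them, 1 table per library. STAR and hg19 are named in the submitters' processing notes; version, annotation and filters are not given in the sources used here. Member genes, gene windows and tests were chosen with earlier results of these data known. Genome sequence and gene models of hg19 were not used here, so no sequence is printed and other pathway genes were not analysed here.

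The tables were joined by position, 1-based. Loci are groups of annotated junctions; their summed unique counts were tested with edgeR 4.0.16 (R 4.3.3, quasi-likelihood, legacy robust dispersion, TMM). Shares were tested by fitting the 2 counts of each event jointly, with library intercepts, a term for which count it is, and that term's interaction with S34F; p-values were Benjamini-Hochberg adjusted over the class. An event needed 20 reads in every library and 10 on each side over the 6 libraries. The scripts were tested on simulated data.

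Named events are, per gene and class, the 2 with the largest difference of mean shares, any called event, and the most read unannotated junction. Alternatives were DESeq2 1.42.0, the newer dispersion estimate, a replicate block, multi-mapped reads, an overhang of 20 nt, other filters, windows and scaling, and leaving out each library. Counts without molecular identifiers are not independent molecules, so depth covers counting error only.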

Additional observations from a re-analysis of the deposited data

How the results depend on the processing

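The count of member events or loci called was 0 in all 85 combinations of class and setting run. Of 761 comparisons of 58 named results with an alternative, 746 kept their direction, and in 0 of the 761 did a result become called. The adjusted p alone fell under 0.05 in 13 comparisons, 11 without WT replicate 1 and 2 with the newer dispersion estimate, at differences under the 10-point minimum. The SF3B1 level was 0.0171 (log2) with total scaling. Direction turned for 10 results when 1 library was left out. Over these fits the SF3B1 level ran from -0.0980 to 0.0736; the log2 odds of the unannotated share ran from -0.0650 to 0.932 in U2AF2, -0.0050 to 0.192 in DHX15, -0.20 to 0.21 in SUGP1 and -0.18 to 0.14 in SF1. Those of the SUGP1 acceptor 19414657 ran from -0.880 to 0.0221, of the DHX15 acceptor 24538797 from -0.0384 to 0.658, and of the competing acceptors of SF1 (64534724), SUGP1 (19414722) and DHX15 (24538797) from -0.181 to 0.0222, -1.23 to 0.0510 and -0.53 to 0.40. The cause was not tested.

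WT and S34F libraries share replicate numbers 1 to 3, but same-numbered libraries did not deviate together (correlations -0.21, -0.23 and -0.02 over 10339 loci), and WT replicate 1 correlated best with S34F replicate 2 (0.30), so the numbers were not taken as pairs. With the replicate block, the count of member loci and events called was 0 in each class, and the SUGP1 level was 0.38 (edgeR adjusted p = 0.534). Over the whole series, loci called by level numbered 0 with edgeR, 1 with the block, 4 without WT replicate 1, 343 with DESeq2 and 678 with no filter on low counts. Acceptor events called over the whole series numbered 1088, and 150 with DESeq2, 922 with the block, 1932 without WT replicate 1, 337 without S34F replicate 2 and 77 without S34F replicate 3. ZRSR2 had the fewest reads of the member genes and the fewest events tested, 7.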
